A study of Mus musculus with 4 samples.

Results

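The genes described here are 10 liver genes of the pericentral zone or of the Wnt response: the pericentral genes Glul, Rhbg, Slc1a2 and Oat, the Wnt-responsive genes Lgr5, Axin2, Tbx3, Nkd1 and Rnf43, and Gls2 as the periportal counterpart. They were chosen by gene name, and 20 of the 41174 probes on the array read them, 1 of these under an older RIKEN name of Slc1a2. Together they are 10 of 27975 genes named on the array. The cells were induced hepatocyte-like (iHep) cells of strain C57BL/6, which according to the labels descend from cells called MDFs. They were grown in 3D or in 2D culture, and each of 2 independent experiments, iHep-1 and iHep-2, gave 1 array per culture. There were thus 2 arrays of 3D culture and 2 arrays of 2D culture, and this number limits the precision. All 4 arrays come from cells that were already induced, and neither primary hepatocytes nor uninduced cells were analysed here. Both 2D titles, and neither 3D title, include a plus sign of unstated meaning, which cannot be told apart from culture.

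Liver lobules are divided into zones along the blood flow. Hepatocytes around the portal vein break down amino acids and make urea, using ammonia that the liver glutaminase Gls2 releases from glutamine. The last hepatocytes before the central vein instead capture the remaining ammonia as glutamine with glutamine synthetase (Glul). Endothelial cells at the central vein secrete Wnt ligands and R-spondins, which stabilise beta-catenin in these hepatocytes and switch on Glul together with feedback genes such as Axin2, Nkd1, Rnf43 and Lgr5.

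The first sequence shown is the array probe that gave the widest difference between the cultures for Glul. It lies on the plus strand at chr1:155751765-155751824 of mouse build mm9, the build named in the file headers.
A_52_P143866: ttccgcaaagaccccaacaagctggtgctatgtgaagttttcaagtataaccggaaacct
The second is the only probe named for Slc1a2 that was well above background on any array. It lies at chr2:102584501-102584560 of mm9 on the minus strand, whereas the gene is on the plus strand. Among 19895 probes of genes with a known strand, 99.7% ran in the gene's direction, so a signal from this probe is not evidence of Slc1a2 mRNA.
A_52_P311194: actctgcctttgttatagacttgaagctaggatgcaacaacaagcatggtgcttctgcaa
Promoter windows from RefSeq (build GRCm38.p6, 250 bases before to 50 bases after a gene start) were matched for 6 of the 10 genes and are shown for Glul, whose culture difference is described below by 3 probes, and for Slc1a2, whose window alone held the core motif of TCF/LEF factors. Capitals mark that motif, CTTTGA or its complement TCAAAG, searched on both strands. The Glul window is chr1:153899679-153899978 on the plus strand and the Slc1a2 window is chr2:102706188-102706487 on the plus strand.
Glul promoter: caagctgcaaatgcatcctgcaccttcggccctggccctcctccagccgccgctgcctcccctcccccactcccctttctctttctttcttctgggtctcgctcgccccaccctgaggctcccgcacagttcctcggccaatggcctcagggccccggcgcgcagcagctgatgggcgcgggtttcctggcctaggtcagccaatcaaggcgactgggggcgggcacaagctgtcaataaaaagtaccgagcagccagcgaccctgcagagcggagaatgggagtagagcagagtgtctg
Slc1a2 promoter: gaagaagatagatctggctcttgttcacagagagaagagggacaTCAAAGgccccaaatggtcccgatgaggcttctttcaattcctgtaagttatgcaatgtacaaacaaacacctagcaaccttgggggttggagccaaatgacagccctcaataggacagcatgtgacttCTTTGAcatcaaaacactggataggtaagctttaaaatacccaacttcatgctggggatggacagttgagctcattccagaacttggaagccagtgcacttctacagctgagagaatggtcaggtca
Of 7 windows of these genes, 1 held the motif, against 16% of 32851 windows of the same length. A match in such a short window is a description of the letters and not a binding site.

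The hepatocyte character in the label was checked first. The plasma protein gene Alb, picked as the usual marker, had signals of 292629 and 303393 intensity units in 3D and of 289405 and 277590 in 2D, and 7 of 9 hepatocyte markers on the array were tested, while Foxa1 and Tdo2 were not well above background on any array. Of these markers, Apoa2 had a difference (3D minus 2D, scaled log2 units) of 3.29 in iHep-1 and of 8.41 in iHep-2, and in the same order Tat differed by 0.51 and 1.02 and Apoa1 by 0.43 and 1.64. The other 4 tested markers differed in opposite directions in the 2 experiments. Alb differed by -0.17 and 0.76, Ttr by -0.33 and 1.86 and Hnf4a by -0.81 and 0.23. Foxa2, above background on only 2 arrays, differed by 2.83 and -2.38. Of 12 fibroblast markers, Thy1, Dcn and Lum were not well above background on any array, and 5 to 9 markers were above it per array by their brightest probe. S100a4 differed by 3.74 and 2.61, Prrx1 by 0.98 and 1.68 and Pdgfra by 0.65 in both experiments. Pdgfrb and Twist2 differed by -1.08 and -0.08 in iHep-1 and were not well above background in 3D of iHep-2. The summed fibroblast signal was 42.5 and 25.5 times the array's 75th percentile in 3D, and 18.3 and 63.4 times in 2D. Most of this sum came from Vim, which differed by 1.11 and -1.96, so the sum is no measure of the others. Of 10 intestinal markers, Cdx1, Olfm4 and Muc2 were dark on all arrays, whereas the intestinal regulator Cdx2 was above background on all 4, with a signal of 417 and 225 units in 3D and of 495 and 366 units in 2D. Fabp2 differed by 4.12 and 2.77, Lgals4 by 1.36 and 1.72 and Vil1 by 0.56 and 0.97, whereas Cdx2 differed by -0.43 and -0.08. Cdh17 was above background in iHep-2 alone, with a difference of -1.69 there. The summed intestinal signal, most of it from Tff3 and therefore no measure of the others, was 524 and 758 times the 75th percentile in 3D and 497 and 401 times in 2D. Among biliary and progenitor markers Epcam differed by 1.59 and 0.95. The endothelial summed signal was 0.23 to 0.26 times the 75th percentile on all 4 arrays, and Kdr was dark on all of them. Lyve1 differed by 1.49 and 0.20, and Cdh5 was above background in 2D alone, with 9.20 and 10.5 units in 3D and 55.2 and 44.2 units in 2D. Among immune markers Ptprc was dark, Cd68 differed by 1.59 and 0.06 and Lyz2 by -0.44 and -2.21. The part of such cells in the results below was not tested, and fewer cells of a type and less RNA per cell cannot be told apart in these bulk samples.

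Across the whole array, limma called 0 of 16458 tested genes (0%) at an adjusted p under 0.05, with a smallest adjusted p of 0.496, and 7.03% of genes had an unadjusted p under 0.05. With the experiment as a block it again called 0 genes, and 13.3% had an unadjusted p under 0.05. All differences below are therefore descriptions of 2 experiments. Each is the log2 value in 3D less that in 2D, with arrays scaled to the 75th percentile of their signals; of a pair of values, the first belongs to iHep-1 and the other to iHep-2. A gene was tested when its probe was well above background on at least 2 arrays, which held for 5 of the 10 genes (Glul, Rhbg, Oat, Tbx3 and Gls2) and for 58.8% of all genes named on the array. Of 20 probes, 12 were not well above background on any array.

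Glul stood higher in 3D culture in both experiments by each of its 3 probes. Its brightest probe (chr1:155756750-155756809, mm9) had a signal of 76893 and 23894 intensity units in 3D, against 30704 and 12779 units in 2D. After scaling this was 7.02 and 5.90 log2 units above the 75th percentile in 3D and 5.87 and 4.37 in 2D. The 3D array of iHep-1 was highest and the 2D array of iHep-2 lowest, and in between the 3D array of iHep-2 and the 2D array of iHep-1 were almost level, so the groups just did not overlap. The differences were 1.14 and 1.53, a mean of 1.34 with a standard error of 0.73 (limma adjusted p = 0.708; 95% interval -0.78 to 3.45). This fit ignores that the arrays are paired by experiment. With the experiment as a block the standard error was 0.25 (limma adjusted p = 0.289).

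The other Glul probes differed by similar or larger amounts. The probe printed above differed by 1.80 and 2.36, with signals of 11666 and 3261 units in 3D and of 2951 and 982 units in 2D, and its groups did not overlap. The dimmest Glul probe (chr1:155755785-155755844, mm9) differed by 1.44 and 1.43, with 1245 and 301 units in 3D and 405 and 173 units in 2D. For this probe the lower 3D array and the higher 2D array were at about the same scaled level (-0.40 and -0.37).

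**Figure D1:**
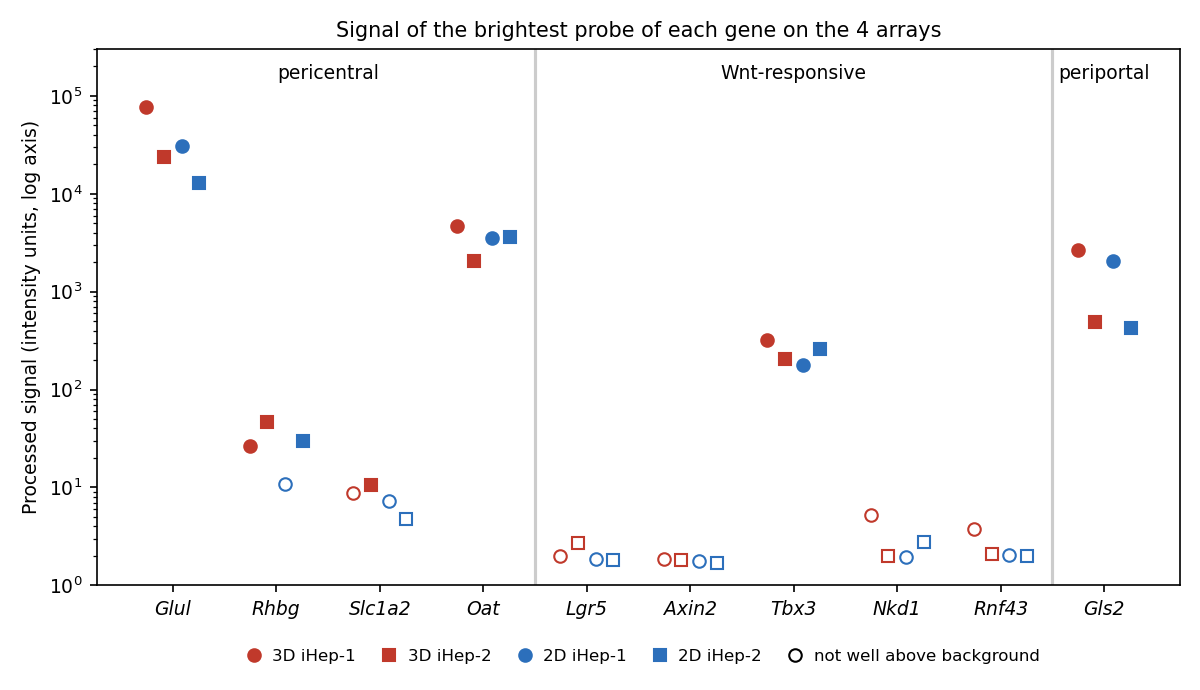
Processed signal (intensity units, log axis) of the brightest probe of each of the 10 genes on the 4 arrays, with 3D in red and 2D in blue, circles for iHep-1 and squares for iHep-2, and open symbols where the spot was not well above background. Glul has 76893 and 23894 units in 3D and 30704 and 12779 in 2D, while Lgr5, Axin2, Nkd1 and Rnf43 are open on every array; heights compare arrays within a gene, not genes.

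Rhbg, a membrane channel for ammonia that sits beside glutamine synthetase in pericentral hepatocytes, was dim. Its probe (chr3:88047265-88047324, mm9, minus strand) had a signal of 26.3 and 46.1 units in 3D, against 10.9 and 30.1 units in 2D, and the 2D array of iHep-1 was not well above background. The difference was 1.08 and 1.24, with a mean of 1.16 and a standard error of 0.72 (limma adjusted p = 0.723), and the groups overlapped because iHep-2 was higher in both cultures. The standard error with the experiment as a block was 0.23 (limma adjusted p = 0.294). With normexp background correction, an alternative that shrinks dim signals, the mean difference was 0.35. Glul and Rhbg were the 2 of 5 tested genes whose 3D value exceeded 2D by at least 2-fold in each experiment, a size reached by 4.26% of all tested genes. No tested gene of the 10 was at least 2-fold lower in both, a size reached by 2.13% of all tested genes.

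Oat, the mitochondrial aminotransferase that links ornithine to glutamate, did not move in one direction. Its probe (chr7:139749726-139749785, mm9, minus strand) had 4654 and 2062 units in 3D and 3494 and 3636 units in 2D. On the scaled values it was 2.97 and 2.37 in 3D and 2.74 and 2.56 in 2D, so both 2D arrays lay between the 3D arrays. The mean difference was 0.02 with a standard error of 0.31 (limma adjusted p = 0.989; 95% interval -0.88 to 0.92), so a difference of somewhat under 2-fold either way is within the interval. With the experiment as a block the standard error was 0.25 (limma adjusted p = 0.976).

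Slc1a2, a glutamate carrier of the cell surface, was read by 5 probes. The 4 probes that follow the gene's strand were not well above background on any array, with signals of at most 8.55 units. The minus-strand probe printed above had 8.71 and 10.5 units in 3D, against 7.29 and 4.75 units in 2D, and passed background only in 3D of iHep-2. The lowest signals that counted as well above background were 8.17 to 8.92 units over the arrays, so Slc1a2 mRNA was not detectable at this signal.

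Gls2, the periportal glutaminase, differed less between the cultures than between the experiments. Its probe (chr10:127646830-127646889, mm9) had 2646 and 489 units in 3D and 2054 and 427 units in 2D. Both iHep-1 arrays were several times brighter than both iHep-2 arrays, and the cultures overlapped. The difference between cultures was 0.18 and 0.82, with a mean of 0.50 and a standard error of 1.18 (limma adjusted p = 0.926; 95% interval -2.94 to 3.94). With the experiment as a block the standard error was 0.28 (limma adjusted p = 0.488).

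Glul and Gls2 can be set against each other within an array, where any scaling of the whole array cancels. In 3D relative to 2D, the Glul signal gained 0.96 and 0.71 log2 units on the Gls2 signal by the brightest Glul probe, which is 1.94-fold and 1.63-fold. The gain was 1.62 and 1.53 by the probe printed above and 1.26 and 0.60 by the dimmest Glul probe. Rhbg likewise gained 0.90 and 0.42 on Gls2, whereas Oat differed from Gls2 by 0.05 and -1.02 and Tbx3 by 0.46 and -0.52. The gain of Glul on Gls2 was thus positive in both experiments, also with normexp background correction (0.96 and 0.74). That of Rhbg rests in iHep-1 on a 2D spot below background and was negative with normexp, at -0.17 and -0.05. The values of Oat and Tbx3 had opposite signs in the 2 experiments. These comparisons cover Gls2 alone of the periportal genes. The 16 further periportal genes tested, described below, had a median difference of 1.89, against 1.34 for Glul. Over the 14 of them above background on all 4 arrays the median was 1.66. With 2 arrays per group an exact two-sided permutation test that ignores the pairing cannot give a p below 0.333. Keeping the pairs together leaves fewer rearrangements, so the limit is then higher.

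The direction of the culture difference itself depended on the scaling. Agilent spike-in controls were 4.03-fold brighter in 3D than in 2D in iHep-1 and 0.967-fold as bright in iHep-2. Scaled to them, the median of all genes moved to -1.85 in iHep-1 and -0.54 in iHep-2, and the brightest Glul probe differed by -0.69 and 0.95. On that scale Rhbg differed by -0.74 and 0.66, Gls2 by -1.64 and 0.25, Tbx3 by -1.18 and -0.27, and Oat by -1.60 and -0.77. Every difference given without mention of spike-ins is therefore relative to the array's other genes.

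**Figure D2:**
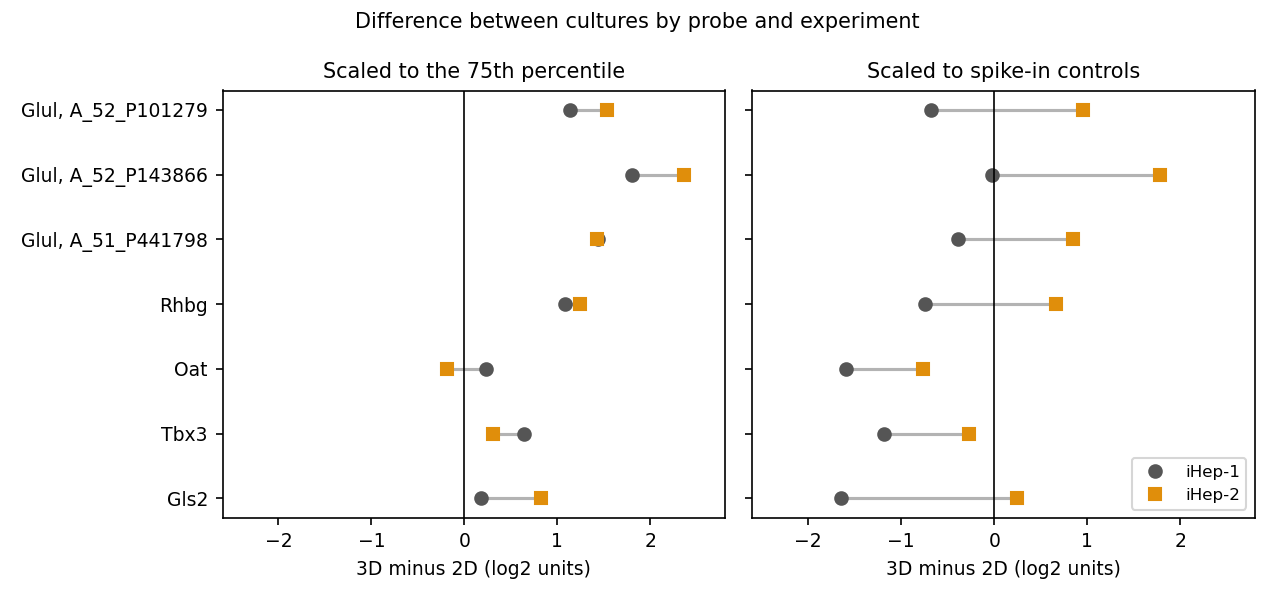
Difference of 3D minus 2D (log2 units, horizontal axis) for each tested probe, with a grey circle for iHep-1 and an orange square for iHep-2, scaled to the 75th percentile (left) or to spike-in controls (right). On the left all 3 Glul probes and Rhbg lie above 1 in both experiments; on the right the brightest Glul probe lies at -0.69 and 0.95, and the order of the probes within an experiment is the same in both panels.

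The Wnt-responsive genes were mostly dark in both cultures. Lgr5, the R-spondin receptor of pericentral hepatocytes and intestinal stem cells, was not well above background by either of its 2 probes on any array. Axin2, a scaffold of the beta-catenin destruction complex and a direct Wnt target, was read by a single probe (chr11:108811980-108812039, mm9), with 1.85 and 1.81 units in 3D and 1.77 and 1.69 units in 2D. Nkd1, an inhibitor of Dishevelled, and Rnf43, a ligase that removes Frizzled receptors, were dark by both of their probes. Over all of these dark Wnt-responsive probes, 8 of 9 in the group, the highest signal was 5.21 units. Of all genes named on the array, 36.2% had no probe well above background on any array, against 4 of these 5 genes. No fold is given for a gene below background in both groups.

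Tbx3, a T-box repressor that follows Wnt signals in liver, was the one Wnt-responsive gene tested. Its brighter probe (chr5:120134473-120134532, mm9) had 317 and 207 units in 3D and 179 and 258 units in 2D. After scaling it stood at -0.91 and -0.95 in 3D and at -1.55 and -1.26 in 2D, so the groups did not overlap, as for Glul and as for 19.9% of all tested genes with 3D higher. The difference was 0.64 and 0.31, with a mean of 0.48 and a standard error of 0.23 (limma adjusted p = 0.701). With the experiment as a block the standard error was 0.24 (limma adjusted p = 0.463). The other Tbx3 probe was dark on all arrays.

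Further Wnt targets differed in both directions. Of 20 genes, 13 were tested, and 3 of these were consistently higher and 5 consistently lower in 3D across iHep-1 and iHep-2, against 33.2% and 33% of all tested genes. The median difference was -0.19, or -0.40 over the 9 genes above background on all 4 arrays, against 0.02 for all tested genes, and 0 genes passed the adjusted threshold by limma. Znrf3, the relative of Rnf43 that also removes Frizzled receptors, differed by -0.25 and -0.64, with 94.0 and 66.0 units in 3D and 98.4 and 159 units in 2D. Ascl2, a Wnt target of intestinal stem cells, differed by 0.33 and 1.77, and the surface glycoprotein Cd44 by 0.77 and 0.21. Sox9, a factor of biliary and progenitor cells, differed by 0.21 and 0.25. Ccnd1 (cyclin D1), which drives entry into the cell cycle, differed by -1.52 and -3.61 and was the single gene of the list at least 2-fold lower in both. The growth regulator Myc differed by -0.80 and -1.51. The feedback genes Sp5, Nkd2 and Dkk1 were dark on all 4 arrays, and Notum, which inactivates Wnt ligands, passed background on 1 array; these 4 were picked for their dark signal.

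Many genes that send the Wnt signal were also dark. Of 25 genes for ligands, R-spondins and ligand secretion, 10 were tested and 13 were dark on every array. Of all genes named on the array, 58.8% were tested and 36.2% were dark on every array. The dark ones in the list included Wnt2, Wnt9b and Rspo3, the ligands of liver endothelial cells, which were picked for that role. Not every ligand was dark or dim. Wnt4, picked for its bright signal, was well above background on all 4 arrays. It had 10652 and 8916 units in 3D and 17023 and 11602 units in 2D, and differed by -0.86 and 0.25. Wnt5b, a ligand of mainly beta-catenin-independent signalling, differed by 0.80 and 1.91, and Rspo4 by 0.21 and 3.2. Porcn, the enzyme that attaches the lipid to Wnt ligands, differed by -0.40 and -1.05, and Wnt7b by -0.51 and -0.22. Wnt11 differed by 0.02 and 0.15. Of the tested genes in this list, 3 stood higher and 2 lower in 3D across both experiments, with a median of 0.07. Over all tested genes the shares were 33.2% higher and 33% lower.

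Receptors and intracellular components were mostly present. Of 17 receptor genes, 16 were tested, and 5 were higher and 7 lower in 3D in both experiments, with a median of -0.23. Of all genes named on the array 58.8% were tested, and of those 33.2% were higher and 33% lower in both. Among Frizzled receptors, Fzd7 differed by 0.70 and 0.29, Fzd1 by 0.15 and 1.05 and Fzd10 by 0.14 and 0.57. Fzd2 differed by -0.86 and -0.81 and the Wnt receptor kinase Ryk by -0.57 and -0.65. Fzd9 differed by -0.56 in iHep-1, and in iHep-2 it had 7.94 units in 3D, below background, against 75 units in 2D. Lgr4, the relative of Lgr5 that also binds R-spondins and was picked for this relation, was well above background on all 4 arrays, with 2581 and 1391 units in 3D and 2425 and 1898 units in 2D, and differed by -0.09 and 0.18.

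Of 24 intracellular components, 23 were tested, 4 being higher and 10 lower in both experiments, with a median of -0.12. The shares over all tested genes were 33.2% higher and 33% lower. Ctnnb1, which encodes beta-catenin and was picked for that role, differed by -0.18 and -0.02. Tcf7l2, the main TCF factor of hepatocytes, differed by 0.31 and 0.75, Dvl3 (Dishevelled) by 0.36 and 1.31, and Bcl9l, a cofactor of beta-catenin, by 0.21 and 0.54. Tnks2, a tankyrase that marks Axin for breakdown, differed by -0.61 and -1.0, the corepressor Tle3 by -0.40 and -0.75, and Wtip, a LIM-domain protein that is not an established Wnt component although the list holds it, by -1.28 and -1.0. Of 13 secreted inhibitors, 4 were tested and 7 were dark on every array, against 58.8% and 36.2% of all genes named on the array. Sost differed by 0.12 and 0.45 and the Dickkopf receptor Kremen1 by 0.07 and 1.31. In each of these lists 0 genes passed the adjusted threshold by limma. With spike-in scaling the medians of the lists of Wnt targets, ligands, receptors, intracellular components and secreted inhibitors were -1.39, -1.13, -1.44, -1.32 and -1.03, against -1.18 for all genes.

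**Figure D3:**
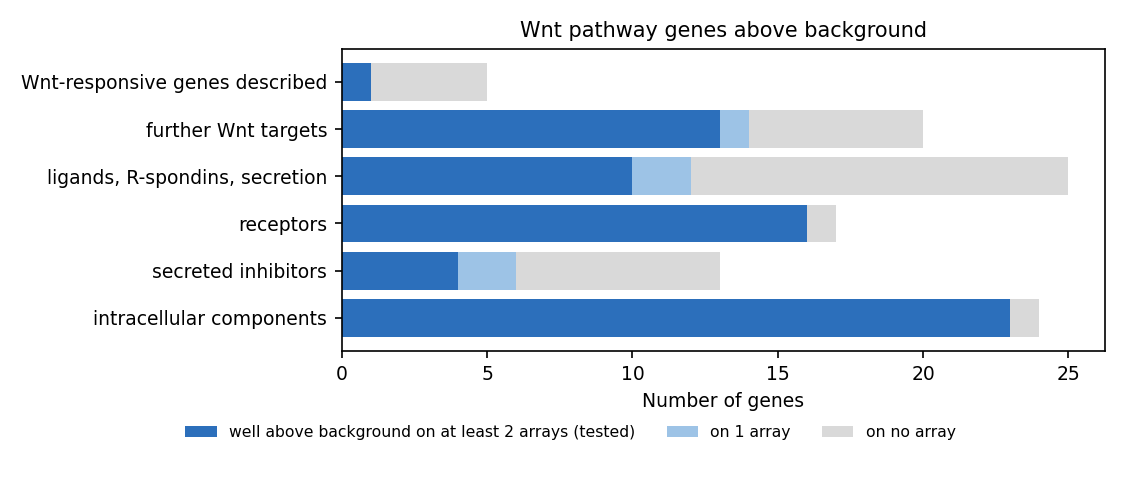
Number of genes (horizontal axis) in each group of Wnt pathway genes whose probes were well above background on at least 2 arrays (dark blue), on 1 array (light blue) or on no array (grey). Receptors (16 of 17) and intracellular components (23 of 24) were mostly tested, while 4 of the 5 Wnt-responsive genes described and 13 of 25 ligand and secretion genes were dark on every array. Of all genes named on the array, 58.8% were tested and 36.2% were dark on every array.

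Other genes of both liver zones had positive median differences, for the pericentral genes only without spike-in scaling. Of 16 further pericentral genes, 12 were tested, and 7 were higher and 0 lower in both experiments, with 5 at least 2-fold higher in both and a median difference of 1.09. Of 18 further periportal genes on the array, 16 were tested, and 12 were higher and 0 lower in both, with 9 at least 2-fold higher in both and a median of 1.89. Over all tested genes the shares were 33.2% higher, 33% lower and 4.26% at least 2-fold higher in both, with a median of 0.02. Of the tested genes in these 2 lists, 2 pericentral and 1 periportal gene entered through the 3D arrays alone, so that they had to be higher there. Over genes above background on all 4 arrays, a setting chosen after the data were seen, 3 of 10 pericentral and 7 of 14 periportal genes were at least 2-fold higher in both, with medians of 0.93 and 1.66, against 3.13% and a median of 0.01 for all 14589 such genes. Whether the 2 zones differ was not tested. With spike-in scaling the medians were -0.11 for the pericentral and 0.69 for the periportal genes, against -1.18 for all genes.

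The pericentral cytochrome Cyp2e1, picked as the zone's usual marker, was dark on all 4 arrays, with 2.41 and 1.68 units in 3D and 1.66 and 1.86 units in 2D. Cyp2a5 and Cyp27a1 were picked to complete the cytochromes of the list. Cyp2a5 had 138336 and 8176 units in 3D and 39416 and 16.3 units in 2D. It differed by 1.63 and 9.60, and Cyp27a1 differed by -0.30 and 1.63. Aldh1a1, a retinal dehydrogenase, differed by 1.95 and 2.91. Cyp7a1 (bile acid synthesis) and Cyp1a2 were not well above background in 2D and were at least 194-fold and at least 33.2-fold brighter in 3D (limma adjusted p = 0.650 and 0.683). These bounds set the mean of the 3D arrays against, for each 2D array, the higher of the probe's own signal and the lowest signal well above background. Within iHep-1 and iHep-2 alone the bounds were 119-fold and 319-fold for Cyp7a1 and 61.8-fold and 17.8-fold for Cyp1a2. On the periportal side, Sds (serine breakdown) had a bound by the same rule of at least 78.1-fold, or 54.9-fold and 111-fold in iHep-1 and iHep-2 alone (limma adjusted p = 0.496), Arg1 (arginase) differed by 5.91 and 9.20, and Hal (histidine breakdown) by 4.27 and 4.51.

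**Figure D4:**
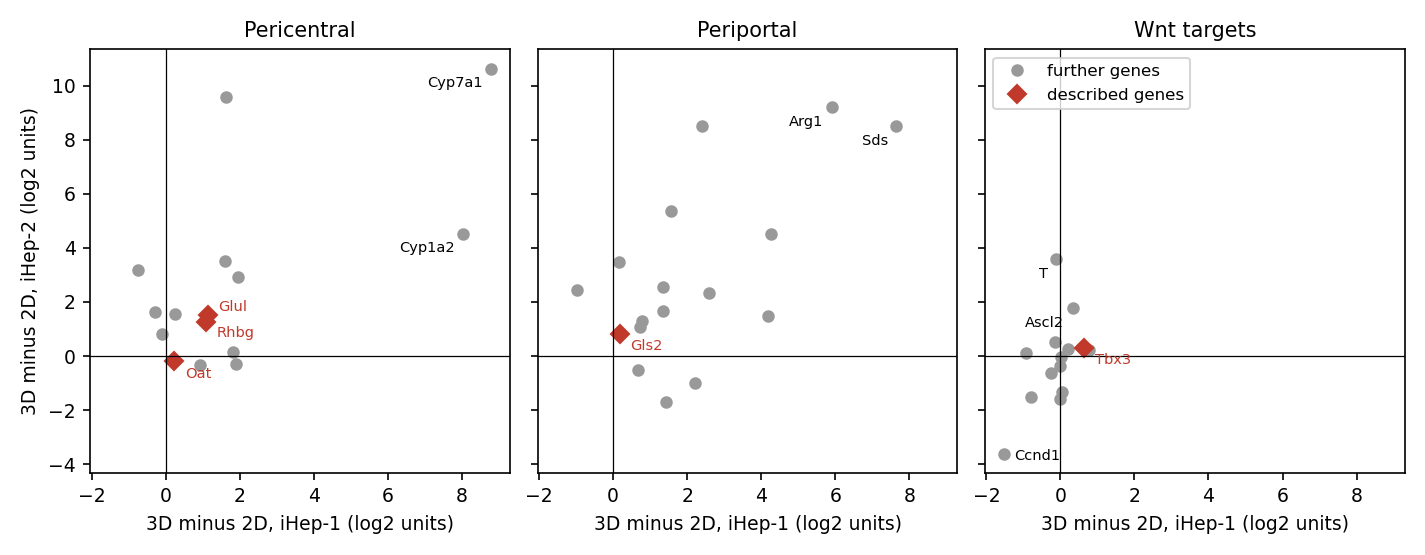
Difference of 3D minus 2D (log2 units) in iHep-1 (horizontal) and iHep-2 (vertical) for the tested genes of 3 lists, with the genes described here as red diamonds and further genes in grey. Glul lies at 1.14 and 1.53, Rhbg at 1.08 and 1.24 and Gls2 at 0.18 and 0.82; Cyp7a1, Cyp1a2 and Sds are drawn at their measured differences, which rest on 2D values below background.

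Among 25 further genes that handle glutamine, glutamate and ammonia, 21 were tested, and 6 were higher and 10 lower in 3D in both experiments, with a median of -0.30. Over all tested genes the shares were 33.2% higher and 33% lower. At least 2-fold in both, 4 genes were higher and 1 was lower, sizes reached by 4.26% and 2.13% of all tested genes. Of these 4, Gpt alone was above background on all 4 arrays, and over the 17 genes that were, 1 was higher and 1 lower by that size, with a median of -0.50. Gpt, the alanine aminotransferase, differed by 1.48 and 2.55, the amino acid carrier Slc7a8 by 1.37 and 2.30, and Slc38a4, another amino acid carrier, by 1.05 and 1.57. In iHep-2, Slc7a8 passed background only in 3D, and Slc38a4 and the remaining gene, the glutamate carrier Slc1a1, in neither culture. Slc7a5, the large neutral amino acid carrier of growing cells, differed by -2.16 and -2.90, Pycr1, which makes proline, by -2.22 and -0.80, and the glutamine carrier Slc1a5 by -0.65 and -2.44. Glud1, the mitochondrial glutamate dehydrogenase, picked by role, differed by 0.74 and 1.65. None of these genes passed the adjusted threshold by limma.

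The experiments also differed for these genes. Relative to iHep-1, Gls2 in iHep-2 was lower by 1.86 log2 units in 3D and by 2.50 in 2D, and Glul by 1.11 in 3D and by 1.5 in 2D. Rhbg was higher in iHep-2 by 1.39 in 3D and by 1.23 in 2D. These 3 of 5 tested genes were at least 2-fold apart between the experiments in both cultures; among all tested genes, 5.75% were at least 2-fold lower and 5.12% at least 2-fold higher in iHep-2 in both. With the experiment as a block, limma's unadjusted p was under 0.05 for 2 of the 5 genes, Glul and Rhbg, as for 13.3% of all tested genes, and the adjusted p was 0.289 for Glul and 0.294 for Rhbg.

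The genes whose centred log2 values over the 4 arrays lay closest to those of Glul, among 16453 other tested genes, were Sash1 (Euclidean distance 0.093 log2 units), the transcript AV333862 (0.17) and the transcript AK084329 (0.18). Sash1 differed between the cultures by 1.26 and 1.53. With only 4 arrays such a likeness is a description. Axin2 was not tested, so no likeness was computed for it.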

How the data were processed

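Total RNA of 4 samples was labelled with Cy3 and hybridised to 1-colour Agilent arrays, per the labels' protocols. The deposited scanner files hold spot intensity values (processed signal, mean signal, local background) from Feature Extraction, version 10.7.1.1 per the file headers and 9.5.1.1 per the submitters' processing notes. All arrays shared 1 slide and 1 scan time, per the file headers. The authors' series table of intensity values was used as an alternative. No spot was saturated.

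Log2 processed signals were centred on each array's 75th percentile (399 to 616 units). Spots marked as outliers were left out (72 to 85 per array). Probes were named through RefSeq accessions (24844) or symbols (7855). Each gene was represented by its brightest probe well above background on at least 2 arrays. The cultures were compared by limma (version 3.58.1, R 4.3.3, two-sided), with p-values adjusted by Benjamini-Hochberg over 16458 genes. The step was tested on simulated data. That test required added differences to be called only at a spread smaller than that of the data. The experiments pair the arrays per the design text, and deviations of arrays of the same experiment correlated (r = 0.66). The genes and lists were chosen with earlier results of these data known. All 10 genes are named, and from each list up to 3 genes per direction with the largest shared difference. Others are marked as picked, or named because they were dark, carried a list's signal or completed a count or the hepatocyte markers.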

Additional observations from a re-analysis of the deposited data

Results flagged for a closer look

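Oat differed between the cultures in opposite directions in the 2 experiments, by 0.23 in iHep-1 and by -0.19 in iHep-2 (3D minus 2D, log2 units). Both differences are small, each rests on 1 array per culture, and the difference between the experiments was not tested.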

How the results depend on the processing

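Limma called 0 genes higher and 0 lower under most settings, and also without any 1 array (0 to 0 in each direction). The exceptions were spike-in scaling, with 67 genes higher and 222 lower, and the replicate block with an intensity trend and robust prior, with 19 higher and 0 lower. In the spike-in fit limma gave every gene the same variance. The 67 and 222 genes were thus called without regard to the spread of each gene's own arrays. The replicate block alone left Glul at 1.34 with an adjusted p of 0.289 and changed no call. Of the 10 genes, 2 exceeded 2D by at least 2-fold in each experiment; this number was 1 with normexp background correction, with quantile normalization, with the authors' series table and when all 4 arrays had to be above background, and 0 with median scaling and with spike-in scaling. Spike-in scaling also turned Rhbg to -0.039, Tbx3 to -0.73, Gls2 to -0.70 and Oat to -1.18, and left Glul at 0.13. Oat, at 0.02, also turned to -0.0007 with normexp, -0.0065 with quantile normalization, -0.14 with median scaling and -0.0055 with the series table. The cause was not tested. Leaving out 1 array moved Glul between 0.59 (without 2D replicate 2) and 2.09 (without 2D replicate 1), Rhbg between 0.47 and 1.86, Oat between -0.28 and 0.32, Tbx3 between 0.33 and 0.62, and Gls2 between -0.75 (without 2D replicate 2) and 1.75. The other Glul probes, compared after the data were seen, gave 2.08 and 1.43. The number in both experiments cannot be had without an array. Signals below about 8 units limit what can be said of Lgr5, Axin2, Nkd1, Rnf43 and Slc1a2.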
